A study of Mus musculus with 6 samples.

Results

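The 10 genes Egr1, Egr2, Egr3, Nr4a1, Nr4a2, Nr4a3, Klf2, Klf4, Klf6 and Ier2 encode immediate early transcriptional regulators, called factors below, and were taken by symbol from the 54532 genes of the deposited FPKM table (fragments scaled to exon length and library size). All 10 were listed, and all 10 had enough fragments to be among the 17661 genes tested. The study measured polyadenylated RNA of whole testis on postnatal day 9. Against 3 wild-type libraries stood 3 from Ppp6r3 cKO mice, a conditional knockout; PPP6R3 is a regulatory subunit of the phosphatase PP6. The driver of the Cre recombinase, the deleted exons, the strain and any allele or agent carried by both groups are not given in the sources used here, nor whether each library came from its own mouse. Spread among the samples, possibly technical, is therefore all that the p-values take into account.

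Immediate early genes are transcribed within minutes of a stimulus, without new protein synthesis, when kinase cascades activate factors that already sit on their promoters. Growth factor signals through the ERK kinases reach EGR genes mainly by serum response factor (SRF) and its partners at CArG boxes. Cyclic AMP signals reach NR4A genes through CREB at cyclic AMP response elements, and ERK5 signals reach Klf2 and Klf4 through MEF2 factors. EGR proteins bind GC-rich DNA with zinc fingers, NR4A proteins are orphan nuclear receptors, and KLF proteins bind GC-rich and CACCC motifs. In the testis, NR4A1 is known as a luteinizing hormone-responsive regulator of Leydig cell steroidogenesis, KLF4 is known in Sertoli cells and in germ cells, and KLF2 is a regulator of vascular endothelium. EGR2 and EGR3 are among the genes that glial cell line-derived neurotrophic factor (GDNF) induces in cultured spermatogonial stem cells.

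The libraries held 15970908 to 16606868 fragments, as recovered from the steps between FPKM values. Ppp6r3 itself averaged 21.0 ± 0.257 FPKM in the wild-type against 15.4 ± 0.458 FPKM in the knockout libraries (SD, n = 3 per group), with no overlap. Defining markers of testis were present: the 10 Sertoli markers summed to 1900 to 1952 FPKM in the wild-type libraries against 1779 to 1946 in the knockout libraries, and the 6 general germ cell markers to 446 to 463 and 341 to 377 FPKM. All 11 markers of meiotic entry and prophase fell, with a median log2 fold change of -1.12. Genes of high GC content were higher in Ppp6r3 cKO as a class: split by GC into 10 bins, 2.32% of genes were called higher in the bottom bin and 15.7% in the top bin. GC content was high for several of the factors, with 3 in the ninth bin and 2 in the tenth. Values corrected for GC and gene length are therefore given for each factor, and for other genes and lists only where stated.

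In Ppp6r3 cKO testis 6 of the 10 factors rose, none fell and 4 did not pass (limma, adjusted p under 0.05). Of all genes tested 7.67% were called higher and 7.84% lower (15.5% in either direction). The 6 were Egr1, Egr3, Nr4a1, Klf2, Klf4 and Ier2. The median log2 fold change of the 10 was 0.43, beside a median of 0.0027 over all genes tested. For 7 factors the 3 Ppp6r3 cKO libraries all lay above the 3 wild-type libraries, as they did in 18.8% of all genes tested, and for Nr4a3 they all lay below, as in 18.1%. After the correction for GC and length 5 rose, where 8.58% of all genes were called higher and 10% lower (18.6% together), and without Ppp6r3 cKO replicate 1 the count was also 5, where 6.56% were called higher and 7.53% lower (14.1% together). Egr1, Nr4a1, Klf2 and Klf4 passed without any single library.

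**Figure D1:**
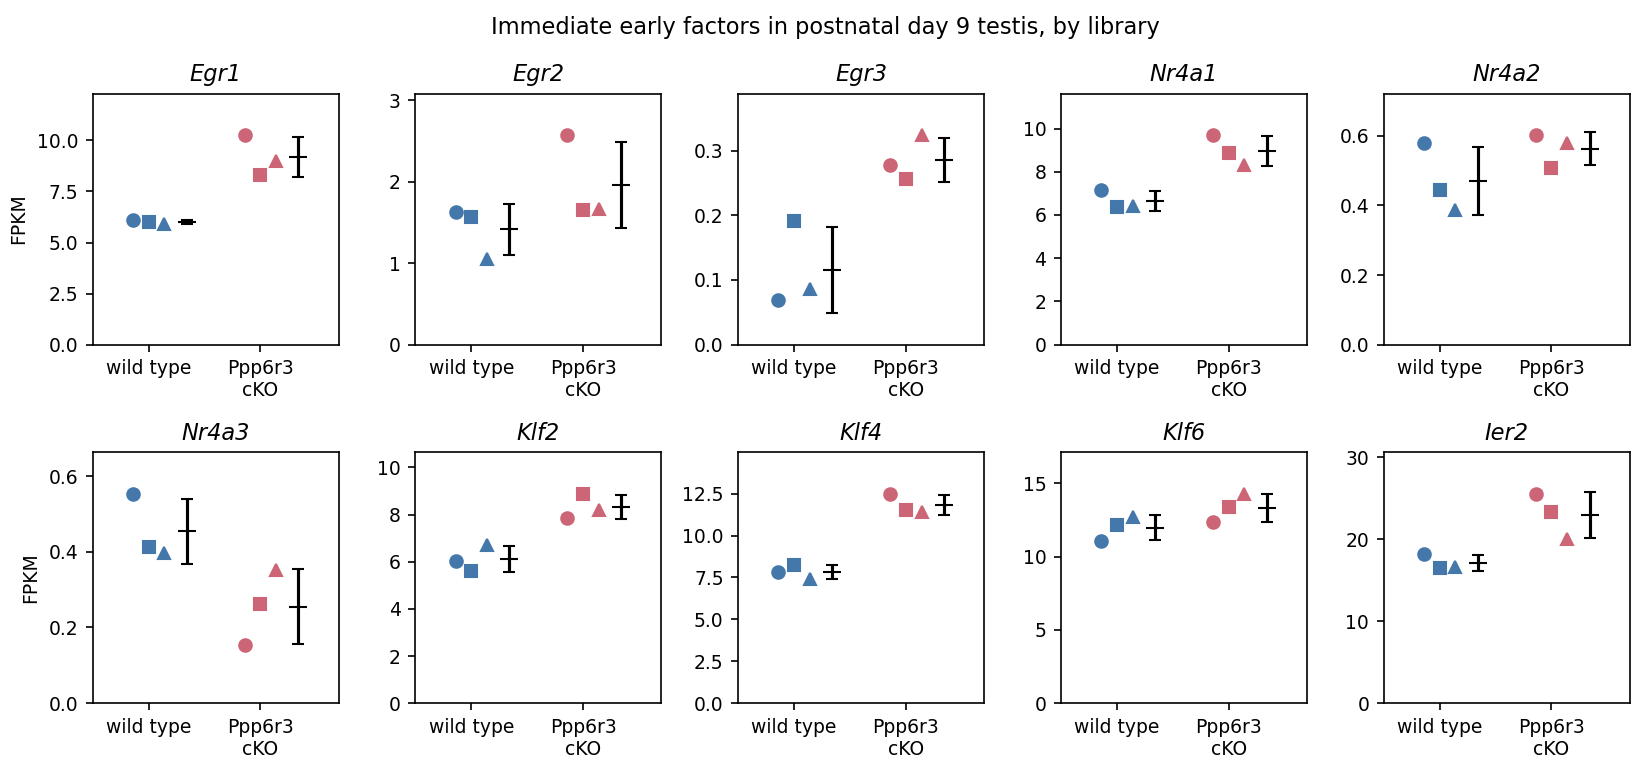
FPKM of each factor in the 6 libraries, on axes that start at 0; circles, squares and triangles are replicates 1, 2 and 3, and the black bar is the mean ± SD of each group. Egr1 and Klf4 show the widest gaps against their spread, Nr4a3 is the only factor whose Ppp6r3 cKO libraries all lie below wild type, and the groups of Nr4a2 and Klf6 overlap.

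Expressed per kilobase, the factors covered a wide range of levels. In wild type Ier2 was the most abundant (17.1 ± 0.955 FPKM, SD, n = 3), followed by Klf6 (11.97 ± 0.851) and Klf4 (7.83 ± 0.425), each separated from the next by ranges that did not overlap. Nr4a1, Klf2 and Egr1 came next at 6.64, 6.12 and 6.02 FPKM, with overlapping ranges between neighbours, so their order is not resolved. Egr2 stood at 1.41 FPKM, Nr4a2 and Nr4a3 at 0.47 and 0.454 FPKM with overlapping ranges, and Egr3 at 0.115 FPKM. In Ppp6r3 cKO the ranges of Klf6 and Klf4 overlapped, at means of 13.3 and 11.8 FPKM. There Nr4a2 and Nr4a3 no longer overlapped, while Nr4a3 (0.255 FPKM) overlapped Egr3 (0.285 FPKM).

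Among the EGR factors, Egr1 showed the clearest difference. Egr1 (ENSMUSG00000038418, chromosome 18, 34859823 to 34864984, plus strand), the family member most widely induced by growth factors, was at 6.12, 6.02 and 5.91 FPKM in wild-type replicates 1 to 3 and at 10.2, 8.29 and 8.996 FPKM in Ppp6r3 cKO replicates 1 to 3. The wild-type libraries lay close together and all 3 knockout libraries were above them. Egr1 rose by 0.60 on the log2(FPKM + 0.1) scale (SE 0.078, 95% interval 0.42 to 0.78, limma adjusted p = 0.00309), and the ratio of the mean FPKM was 1.53. After the GC and length correction the difference of Egr1 was 0.53, and without Ppp6r3 cKO replicate 1, its highest library, 0.51.

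Egr2 (ENSMUSG00000037868, chromosome 10, 67535475 to 67542188, plus strand), known for its role in hindbrain patterning and myelination, was at 1.63, 1.56 and 1.05 FPKM in wild type and at 2.57, 1.66 and 1.66 FPKM in Ppp6r3 cKO. The groups did not overlap, but the highest wild-type and the lowest knockout library were close, and Ppp6r3 cKO replicate 1 stood far above the other libraries. The log2 fold change of Egr2 was 0.44 (95% interval -0.06 to 0.94, limma adjusted p = 0.211), 0.24 without that library and 0.25 without wild-type replicate 3. After the GC and length correction the difference of Egr2 was 0.43.

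Egr3 (ENSMUSG00000033730, chromosome 14, 70077203 to 70082614, plus strand), an EGR factor studied mainly in muscle spindles and lymphocytes, rested on few fragments. They numbered 5, 14 and 6 in wild type and 20, 18 and 23 in Ppp6r3 cKO. In FPKM these were 0.0683, 0.192 and 0.0853 against 0.277, 0.256 and 0.323, without overlap. Egr3 rose by 0.88 (SE 0.25, 95% interval 0.31 to 1.46, limma adjusted p = 0.0491), and the ratio of the means was 2.48. This call is at the threshold: adjusted p ran from 0.0139 to 0.212 over the alternatives, it was lost after the GC and length correction (0.84, adjusted p = 0.0536), and it held without wild-type replicate 2 (adjusted p = 0.0274) but not without any other library. The fold change also depended on the pseudocount, being 1.36 with 0.01 and 0.21 with 1.

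The CArG box, the SRF site of serum-inducible genes, was found in the promoter windows of Egr2 alone among the 7 factors searched. A window runs from 250 bases before to 50 after a RefSeq transcript start, and some genes have several. Windows of 7 of the 10 factors were matched and searched (Egr2, Nr4a1, Nr4a2, Nr4a3, Klf2, Klf4 and Klf6). Those of Egr1, Egr3 and Ier2 were not searched, so whether they hold the box was not tested. The Egr2 box is shown in capitals with 10 bases on either side (RefSeq, GRCm38.p6, chr10:67537787-67537816, plus strand).
Egr2: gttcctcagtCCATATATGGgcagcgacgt
It begins 72 bases before the transcript start of its window, another Egr2 window held a CArG box of other letters, and 1.63% of all 32817 windows held one on either strand.

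**Figure D2:**
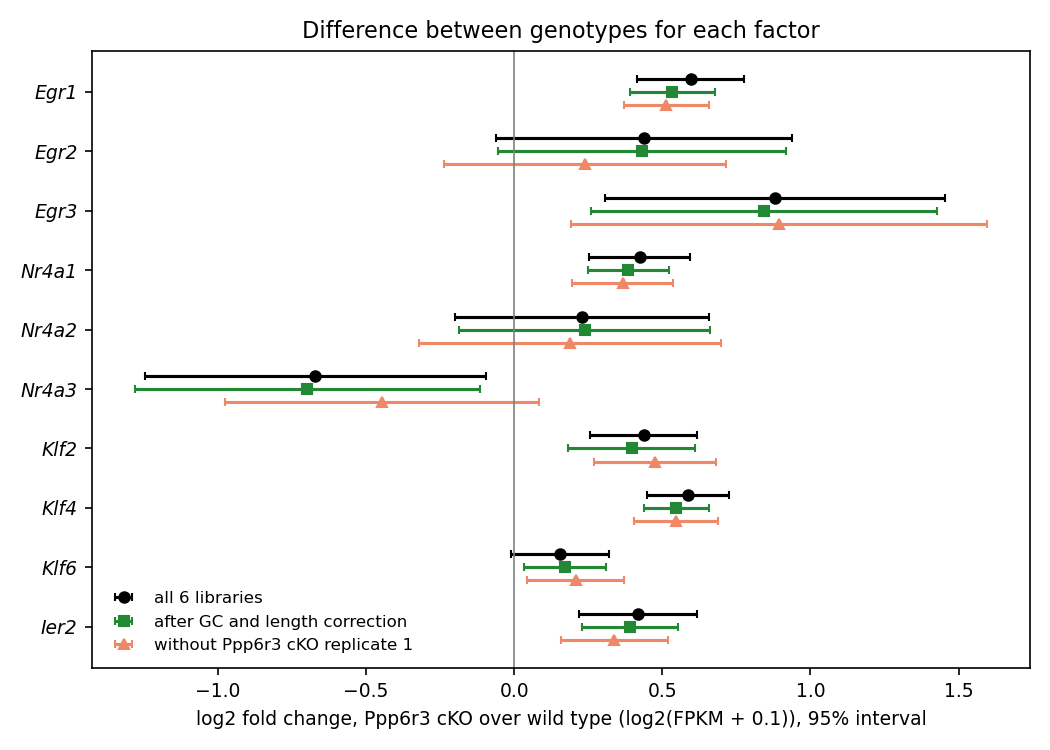
Log2 fold change of each factor between Ppp6r3 cKO and wild type with its 95% interval, from all 6 libraries (black circles), after the GC and length correction (green squares) and without Ppp6r3 cKO replicate 1 (orange triangles). Egr1, Egr3, Nr4a1, Klf2, Klf4 and Ier2 keep intervals above 0 in all 3 fits, while Egr2 and Nr4a2 span 0 in all 3. The intervals are not adjusted for the number of genes, and Egr3 passed the adjusted threshold only in the first fit.

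Of the NR4A factors Nr4a1 rose, and neither Nr4a2 nor Nr4a3 passed. Nr4a1 (ENSMUSG00000023034, chromosome 15, 101254269 to 101274795, plus strand), also called NUR77, was at 7.16, 6.36 and 6.42 FPKM in wild type and at 9.68, 8.86 and 8.32 FPKM in Ppp6r3 cKO. Every knockout library was above every wild-type library. Nr4a1 rose by 0.42 (SE 0.074, 95% interval 0.25 to 0.60, limma adjusted p = 0.00902), or 1.35 times the wild-type mean, and by 0.39 after the GC and length correction. Nr4a2 (ENSMUSG00000026826, chromosome 2, 57106830 to 57124003, minus strand), known from midbrain dopamine neurons, was at 0.579, 0.445 and 0.386 FPKM in wild type and at 0.601, 0.509 and 0.58 FPKM in Ppp6r3 cKO. The groups of Nr4a2 overlapped and the difference did not pass (log2 fold change 0.23, 95% interval -0.20 to 0.66, limma adjusted p = 0.446). The value of Nr4a2 was 0.36 without wild-type replicate 1, 0.12 without wild-type replicate 3 and 0.24 after the GC and length correction.

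Nr4a3 (ENSMUSG00000028341, chromosome 4, 48045153 to 48086447, plus strand), also called NOR1, was the only factor with a negative difference. Its fragments numbered 55, 41 and 38 in wild type and 15, 25 and 34 in Ppp6r3 cKO, or 0.553, 0.413 and 0.397 FPKM against 0.153, 0.261 and 0.352. All 3 knockout libraries lay below all 3 wild-type libraries, but they were spread widely, with replicate 1 lowest. The log2 fold change of Nr4a3 was -0.67 (SE 0.25, 95% interval -1.25 to -0.09) and did not pass with limma (adjusted p = 0.11). It was called lower with voom on the recovered fragments (log2 fold change -0.89, adjusted p = 0.023), a model in which 11.5% of all genes were called lower, and adjusted p ran from 0.023 to 0.3 over the alternatives. Without Ppp6r3 cKO replicate 1 the difference of Nr4a3 was -0.45, and after the GC and length correction it was -0.70.

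The balance within the NR4A family can be read as a ratio of FPKM in each library, which does not depend on the scaling between libraries. The ratio of Nr4a1 to Nr4a3 was 12.9, 15.4 and 16.2 in wild type and 63.4, 33.9 and 23.6 in Ppp6r3 cKO. Every knockout ratio was above every wild-type ratio (exact permutation test over libraries, 2-sided p = 0.1). That is the smallest p that 3 against 3 can give, and 6 such ratios were computed. With Nr4a1 higher and Nr4a3 lower in every knockout library, this separation was fixed in advance, so the test adds nothing to those ranges. The knockout ratios rest on 15, 25 and 34 fragments of Nr4a3, whose own difference did not pass. The ratio of Nr4a1 to Nr4a2 was 14.4 ± 2.15 in wild type and 15.96 ± 1.55 in Ppp6r3 cKO (SD, n = 3 each, exact permutation p = 0.4). That of Egr1 to Egr2, computed in the same way, overlapped between the groups (4.41 ± 1.05 and 4.80 ± 0.735, exact permutation p = 0.7).

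The same windows of 300 bases were searched on both strands for the sites of cyclic AMP signals. The core TGACG of the cyclic AMP response element was found in the windows of 6 of the 7 matched factors (Egr2, Nr4a1, Nr4a2, Nr4a3, Klf2 and Klf4), and 20.8% of all windows held it. Nr4a1, Nr4a2 and Nr4a3 each had 4 copies, while the full element TGACGTCA, held by 1.79% of windows, was in none of the 7. Nr4a1 and Nr4a3 are shown because their differences between the genotypes had opposite signs, though that of Nr4a3 did not pass. Both hold the core TGACG, as do the other factors just named, and its part in the differences was not tested. The stretches end before the first base that GENCODE annotates as exon, and capitals mark TGACG or its complement CGTCA (RefSeq, GRCm38.p6, chr15:101266596-101266845 and chr4:48045055-48045152, both plus strand).
Nr4a1: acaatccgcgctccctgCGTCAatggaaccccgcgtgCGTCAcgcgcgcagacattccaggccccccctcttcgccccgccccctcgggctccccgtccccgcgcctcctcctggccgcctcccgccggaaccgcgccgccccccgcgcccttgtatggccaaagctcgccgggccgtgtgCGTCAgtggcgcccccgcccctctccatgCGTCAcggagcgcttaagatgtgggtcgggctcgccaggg
Nr4a3: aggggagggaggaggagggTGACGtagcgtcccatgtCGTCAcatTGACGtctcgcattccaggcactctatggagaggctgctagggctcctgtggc
The printed Nr4a1 stretch holds 4 copies and the shorter Nr4a3 stretch holds 3. NR4A proteins themselves bind the motif AAAGGTCA, which was in no window of the 7 factors and in 1.51% of all.

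Among the KLF factors, Klf4 and Klf2 rose and Klf6 did not pass. Klf4 (ENSMUSG00000003032, chromosome 4, 55527143 to 55532466, minus strand), one of the factors used to reprogram cells to pluripotency, was at 7.82, 8.26 and 7.41 FPKM in wild type and at 12.5, 11.5 and 11.4 FPKM in Ppp6r3 cKO. The gap between the groups was much wider than the spread within either. Klf4 rose by 0.59 (SE 0.061, 95% interval 0.45 to 0.73, limma adjusted p = 0.00115), or 1.51 times the wild-type mean. After the GC and length correction the rise of Klf4 was 0.55, and over the 6 fits that each left out a library it ran from 0.55 to 0.62.

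Klf2 (ENSMUSG00000055148, chromosome 8, 72319033 to 72321656, plus strand), which responds to blood flow in endothelial cells, was at 6.03, 5.61 and 6.71 FPKM in wild type and at 7.86, 8.88 and 8.19 FPKM in Ppp6r3 cKO. The groups did not overlap, and unlike Egr1, Nr4a1, Klf4 and Ier2 its lowest knockout library was replicate 1. Klf2 rose by 0.44 (SE 0.079, 95% interval 0.26 to 0.62, limma adjusted p = 0.0102), by 0.40 after the GC and length correction and by 0.48 without that library. Klf6 (ENSMUSG00000000078, chromosome 13, 5861482 to 5870394, plus strand), a broadly expressed KLF factor, was at 11.04, 12.2 and 12.7 FPKM in wild type and at 12.3, 13.4 and 14.3 FPKM in Ppp6r3 cKO. The groups of Klf6 overlapped, and its log2 fold change of 0.15 did not pass (95% interval -0.01 to 0.32, limma adjusted p = 0.187). The difference of Klf6 was 0.10 without wild-type replicate 1 and 0.21 without Ppp6r3 cKO replicate 1 (95% interval 0.04 to 0.37). After the GC and length correction it was 0.17 (95% interval 0.03 to 0.31). Klf6 passed in none of the alternatives (adjusted p 0.0532 to 0.434). With 805 to 1012 fragments per library, Klf6 had the most counts of the 10.

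The ratio of Klf4 to Klf6 in a library was 0.708, 0.679 and 0.583 in wild type and 1.01, 0.862 and 0.798 in Ppp6r3 cKO, with no overlap (exact permutation p = 0.1, 2-sided). That of Klf2 to Klf6 was 0.512 ± 0.045 and 0.625 ± 0.0464 (SD, n = 3 each; exact permutation p = 0.1). The ratio of Klf4 to Klf2 overlapped between the groups (1.29 ± 0.184 and 1.43 ± 0.147; exact permutation p = 0.4).

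The promoters of Klf2 and Klf4 are shown for the factor sites found there. The MEF2 site was found in Klf2 alone of the 7 factors, and 0.558% of all windows held a match. The EGR site GCGNGGGCG was in the windows of Nr4a1, Nr4a2, Klf2 and Klf4, and in 5.56% of all windows, and each of its copies overlapped a GC box (GGGCGG), which all 7 factors and 35.6% of all windows held. Capitals mark the MEF2 site of Klf2 (RefSeq, GRCm38.p6, chr8:72318812-72319032, plus strand), which begins 118 bases before the transcript start, and the 2 EGR sites of Klf4 on the complementary strand (chr4:55532476-55532725, minus strand).
Klf2: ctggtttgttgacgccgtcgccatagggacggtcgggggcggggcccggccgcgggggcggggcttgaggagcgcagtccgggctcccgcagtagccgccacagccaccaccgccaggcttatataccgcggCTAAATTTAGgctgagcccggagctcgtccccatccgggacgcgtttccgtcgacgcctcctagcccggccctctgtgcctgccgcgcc
Klf4: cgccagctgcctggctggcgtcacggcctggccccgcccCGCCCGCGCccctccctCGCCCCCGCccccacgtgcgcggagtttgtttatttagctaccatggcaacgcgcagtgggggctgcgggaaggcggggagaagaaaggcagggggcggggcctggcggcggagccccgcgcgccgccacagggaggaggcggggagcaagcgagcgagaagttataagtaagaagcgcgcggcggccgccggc
These matches describe letters only, and no binding was measured.

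Ier2 (ENSMUSG00000053560, chromosome 8, 84661331 to 84662852, minus strand), a small growth factor-inducible nuclear protein, was at 18.2, 16.5 and 16.6 FPKM in wild type and at 25.5, 23.4 and 20.03 FPKM in Ppp6r3 cKO. All knockout libraries were above all wild-type libraries, with the knockout libraries more widely spread. Ier2 rose by 0.42 (SE 0.087, 95% interval 0.22 to 0.62, limma adjusted p = 0.0167), or 1.34 times the wild-type mean. The call of Ier2 was lost without wild-type replicate 2 (adjusted p = 0.0618) or 3 (0.0598) or Ppp6r3 cKO replicate 2 (0.0515), and adjusted p ran from 0.000402 to 0.0618 over the alternatives. After the GC and length correction it stayed called (0.39).

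**Figure D3:**
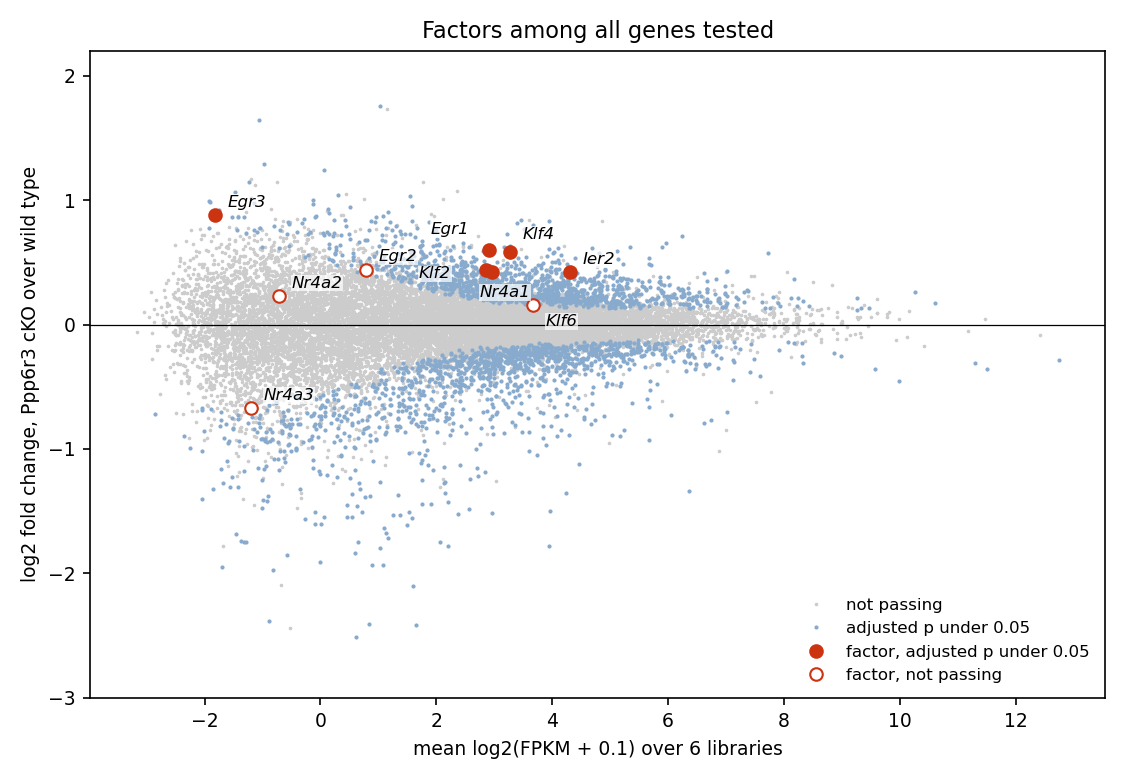
Log2 fold change against mean log2(FPKM + 0.1) for the 17661 genes tested, with the 10 factors in red (filled where adjusted p was under 0.05). Egr1, Klf4, Nr4a1, Klf2 and Ier2 lie in the upper part of the cloud at middle and high levels, and Egr3, Nr4a2 and Nr4a3 lie among low genes, where the spread of all genes is wide.

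Within a group the factors did not rise and fall as 1 block. Of the 45 pairs of factors, 23 had a positive correlation of their deviations from the group means over the 6 libraries. These values come from 3 libraries a group that share their depth and are given as a description. Nr4a1 and Ier2 deviated together (r = 0.94), as did Egr2 and Klf4 (0.90), while Klf6 deviated against Nr4a1 (-0.96) and Ier2 (-0.91). Ppp6r3 cKO replicate 1 was the highest knockout library for Egr1, Egr2, Nr4a1, Nr4a2, Klf4 and Ier2 and the lowest for Nr4a3, Klf2 and Klf6. The summed level of the 10 factors was 57.6 to 59.2 FPKM in wild type against 74.1 to 81.7 in the knockout.

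Among the 10 factors, Klf4 (r = 0.99) and Egr1 (0.97) followed the mean standardized profile of the 10 most closely over the 6 libraries. Nr4a3 ran against this profile (-0.75). Each factor is itself part of that mean, and 9 of the 10 had a positive difference between the genotypes. Of 11929 other protein-coding genes with a mean of at least 1 FPKM, the 5 most like this profile were App (the amyloid precursor protein), Fzd10 (a WNT receptor), St6gal1 (a sialyltransferase), Gsn (the actin-severing protein gelsolin) and Mmp11 (a matrix metalloprotease), with r of 0.997 to 0.998 as a description over the 6 libraries. The genotype difference was not removed before this correlation, so genes that separate the groups with little spread rank high in it. Fzd10 went from 1.34 to 2.52 FPKM and App from 34.97 to 39.3 FPKM.

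Relatives of these factors were read from lists. Of 15 other EGR and KLF genes 13 were tested, of which 7 rose, none fell and 6 missed the threshold, at a median log2 fold change of 0.24. Egr4, the family member best known from male germ cells, averaged 15.96 ± 1.31 FPKM in wild type against 22.4 ± 1.43 in the knockout (SD, n = 3 per group; log2 fold change 0.49, limma adjusted p = 0.00409), above Egr1, Egr2 and Egr3 in level in both groups. After the GC and length correction the rise of Egr4 was 0.39, and 5 genes of this list were called higher. Klf7 rose by 0.41 and Klf16 by 0.29, while Klf10, at -0.09, did not pass. Leaving out 1 library left 1 to 5 genes of this list called higher: 1 without wild-type replicate 1 or 2, 3 without either wild-type replicate 3 or knockout replicate 2, 4 without Ppp6r3 cKO replicate 1 and 5 without Ppp6r3 cKO replicate 3. Klf7 was lost without every library but Ppp6r3 cKO replicate 2, and Klf16 without wild-type replicate 1 or 2 or knockout replicate 2 and after the GC and length correction (0.24, adjusted p = 0.0524). Of the IER family, Ier5 rose by 0.20, a call lost without any 1 library (adjusted p 0.0659 to 0.12), and Ier3 (0.28, or 0.18 to 0.40 without 1 library) and Ier5l (0.24) did not pass. The EGR corepressors Nab1 and Nab2, the latter itself an EGR target, did not pass (log2 fold changes 0.11 and 0.15, the latter with a limma adjusted p of 0.17). Without Ppp6r3 cKO replicate 1 the value of Nab2 was 0.08.

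Of 22 transcription factors and kinases that induce immediate early genes, 4 rose and none fell, while 18 missed the threshold (median 0.10). Srf averaged 31.5 ± 0.934 FPKM in wild type against 39.1 ± 3.19 in the knockout (SD, n = 3 per group; log2 fold change 0.31, limma adjusted p = 0.0133), and 0.23 after the GC and length correction. Its call was lost without wild-type replicate 2 or 3 (adjusted p = 0.0528 and 0.0529). The SRF coactivator Mrtfa rose by 0.34, a call lost without any 1 wild-type library (adjusted p 0.0548 to 0.059), and the CREB coactivator Crtc3 by 0.33. After the GC and length correction Mrtfa rose by 0.23 and Crtc3 by 0.26, and the median of the list was 0.07. Creb1 (0.15), Mapk7, which encodes ERK5 (0.16), and the MEF2 genes Mef2a, Mef2c and Mef2d (0.07, 0.25 and 0.20) did not pass, and Mef2a ran from 0.04 to 0.11 without 1 library. Without wild-type replicate 2 or 3 only 2 of the list were called higher, and with voom 9. Without Ppp6r3 cKO replicate 1 the CREB coactivator gene Crtc2, at -0.12 and not passing in all libraries, was called lower (-0.21, limma adjusted p = 0.048).

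Of 33 other immediate early genes 11 rose and none fell, 22 missed the threshold, and the median was 0.24. After the GC and length correction 11 rose and the median was 0.18. Without 1 library 8 to 12 were called higher, and Dusp5, a phosphatase gene at -0.13 that did not pass, was called lower without Ppp6r3 cKO replicate 1 (-0.26, limma adjusted p = 0.024). Jun, an AP-1 subunit, went from 17.3 ± 0.774 to 25.1 ± 0.898 FPKM (log2 fold change 0.54), the matrix protein gene Ccn1 rose by 0.59 and the kinase gene Plk3 by 0.68. Fos, the classic immediate early gene, averaged 1.54 ± 0.229 FPKM in wild type against 1.72 ± 0.394 in the knockout (SD, n = 3 per group), overlapped between the groups and did not pass (log2 fold change 0.14, 95% interval -0.30 to 0.57, limma adjusted p = 0.675). The value of Fos ran from 0.02 without wild-type replicate 2 to 0.33 without Ppp6r3 cKO replicate 1, and it moved by over 1.5 times without any library but wild-type replicate 3. Junb, at 0.41, did not pass (limma adjusted p = 0.104), though it was called higher with voom and without Ppp6r3 cKO replicate 2 (0.57, adjusted p = 0.0207). Of 11 heat and stress genes 2 rose (Hspb1 by 0.43 and Hmox1 by 0.21), Hsph1 fell by 0.26 and 8 did not pass. Hmox1 was lost without wild-type replicate 2 or 3 or knockout replicate 2 (adjusted p 0.0632 to 0.0843), and Hsph1 without any 1 library (0.0585 to 0.134).

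**Figure D4:**
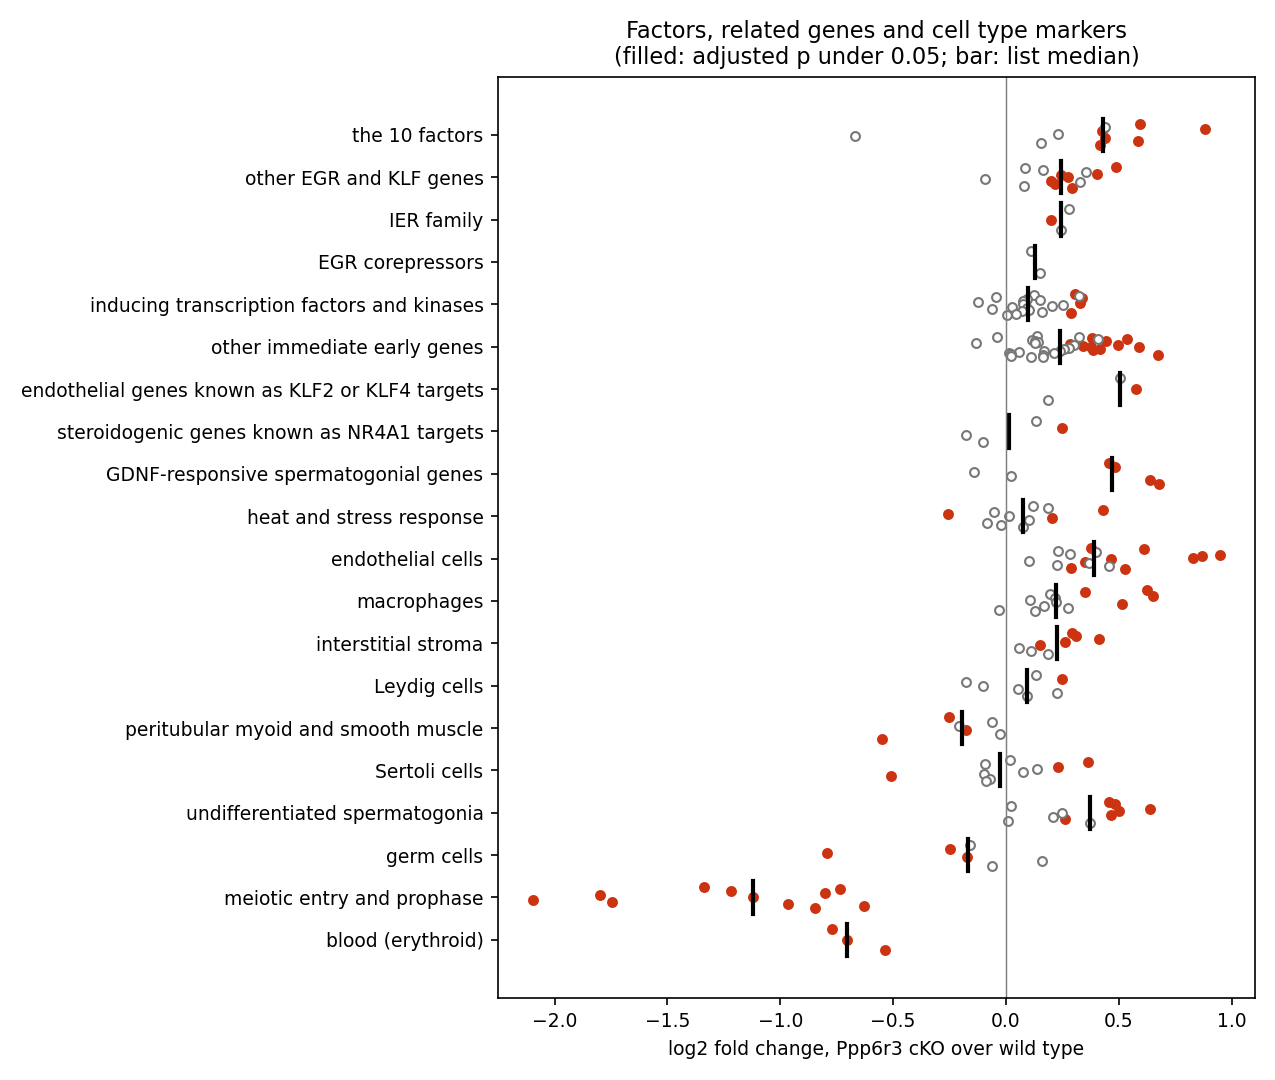
Log2 fold change of each tested gene in the 10 factors, the lists of related genes and the cell type marker lists, with filled points at an adjusted p under 0.05 and a black bar at each list's median. Furthest to the right lie the medians of endothelial targets of KLF2 or KLF4 (0.51), GDNF-responsive genes (0.47) and the factors (0.43). Endothelial markers (0.39) and undifferentiated spermatogonial markers (0.37) come next. Meiotic markers (-1.12) and erythroid markers (-0.71) lie furthest to the left.

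Some genes known to be controlled by the factors, or to respond to GDNF with them, passed. Of 3 endothelial targets of KLF2 or KLF4, Thbd, which encodes the anticoagulant receptor thrombomodulin, averaged 22.9 ± 0.782 FPKM in wild type against 34.3 ± 1.32 in the knockout (SD, n = 3 per group; log2 fold change 0.58, limma adjusted p = 0.000381). Nos3 (0.51, 95% interval 0.10 to 0.91, limma adjusted p = 0.091) and S1pr1 (0.19) did not pass. Of 4 steroidogenic and Leydig targets of NR4A1, Hsd3b1 rose by 0.25, while Star (0.14), Cyp17a1 (-0.18) and Insl3 (-0.10) did not pass. Of 7 GDNF-responsive spermatogonial genes 6 were tested and 4 rose: Spry4 by 0.68, Pou3f1 by 0.64, Bcl6b by 0.48 and Etv5 by 0.46. Bcl6b was lost without wild-type replicate 2 or 3 or knockout replicate 3 (adjusted p 0.05 to 0.0682), and only 2 of the list were called without wild-type replicate 2. Id4 (0.02) and Lhx1 (-0.14) did not pass, and both changed sign without 1 library (Id4 -0.14 to 0.15, Lhx1 -0.41 to 0.09).

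Markers of the cell types that could carry these transcripts differed in direction between types. Of 16 endothelial markers 9 rose and none fell (median 0.39), and their summed level was 71.7 to 76.1 FPKM in wild type against 100.2 to 109.7 in the knockout. Macrophage markers (4 of 12 rose, none fell, median 0.22) summed to 137.6 to 145.04 and 178.8 to 190.4 FPKM, and stromal markers (5 of 8 rose, none fell, median 0.22) to 486 to 495 and 579 to 602 FPKM. Of 11 tested markers of undifferentiated spermatogonia 6 rose and none fell (median 0.37), with summed levels of 73.0 to 77.0 and 92.4 to 95.1 FPKM. Only 3 of these were called without wild-type replicate 2. Etv5, Bcl6b and Pou3f1, which are among the risers, and Id4 are also on the GDNF-responsive list, so the lists are not separate observations. Of the 10 Sertoli markers 2 rose, 1 fell and 7 did not pass (median -0.03), and without any 1 wild-type library 1 was called higher and 0 lower. Of the 6 general germ cell markers 3 fell and none rose (median -0.17), with 1 called lower without any 1 wild-type library or knockout replicate 2, and 1 called higher without knockout replicate 1. Leydig markers (1 of 7 rose, none fell, median 0.09) summed to 225 to 236 and 249 to 252 FPKM, and myoid markers (3 of 6 fell, 2 without any 1 library, none rose) to 603 to 629 and 508 to 536 FPKM. The Leydig list holds all the NR4A1 targets named above, and Hsd3b1 is the gene that rose in both lists. Erythroid markers fell in 3 of 3 tested, with sums of 289 to 327 and 178 to 204 FPKM. After the GC and length correction the medians were 0.35 for endothelial, 0.32 for undifferentiated spermatogonial, 0.23 for macrophage, 0.19 for stromal and 0.03 for Leydig markers. They were 0.002 for Sertoli, -0.09 for general germ cell, -0.17 for myoid, -0.65 for erythroid and -1.04 for meiotic markers. No marker was at 0 in all 6 libraries. The part of these cell types in the rise of the factors was not tested, and in whole tissue more cells of a type cannot be told apart from more RNA per cell.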

How the data were processed

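The members and gene lists were chosen with earlier results of these data known. Polyadenylated RNA was sequenced from 6 testis samples. Per the labels' protocols libraries were stranded (KAPA kit), and per the series' design text reads were aligned to mm10 with HISAT2 2.0.5. DESeq2 also appears in the submitters' processing notes. How fragments were counted (tool, strand setting, annotation) is not given in the sources used here, and overlapping genes may share reads. The authors deposited FPKM values in a table named as raw counts.

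FPKM times the exon length in GENCODE M21 came out as whole numbers of a per-library step (tolerance 0.01) for 31603 of 32589 genes above 0 (97%), which gave fragments and depth as an inference. The recovered fragments summed to over 100% of that depth (101.5% to 103.3%). Genes with at least 10 fragments in at least 3 libraries were tested on log2(FPKM + 0.1) with limma 3.58.1 in R 4.3.3 (trend, robust, 2-sided, Benjamini-Hochberg over all 17661 genes). Fold changes on this scale understate those of low genes. Voom ran on recovered fragments with trimmed-mean scaling. The GC and length correction removed natural splines (5 degrees of freedom each) from each library's deviations. No replicate pair of a group agreed within sampling noise: chi-square over its degrees of freedom was 2.23 to 4.29. On simulated data with 200 of 17433 genes altered, the test found 75.4% of those altered 1.5-fold and 97.0% of those altered 4-fold, with 12 of 182 calls false. The simulation gave every gene the same dispersion (0.00127) and both groups the same noise. In the data chi-square was 2.73 to 4.29 for knockout pairs and 2.23 to 2.68 for wild-type pairs. The simulated shares also average over genes of all levels, so they do not give the recovery for the low factors.

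Named genes were the 10 factors, Egr4, Nab2, Srf, Fos, Junb, Pecam1, Ppp6r3, the up to 3 passing genes per list that changed most (or, where none passed, the lowest p), and the 5 genes most like the factors; most marker genes are given as counts. Further list members were named after their values were seen. Promoters are from RefSeq on GRCm38.p6, and coordinates from GENCODE M21 on the same assembly (mm10). Alternatives changed the pseudocount, filter, model, scaling, GC correction, moderation, replicate block, threshold and libraries. Python 3.11.15, numpy 2.4.6, pandas 2.3.3 and scipy 1.17.1 were used.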

Additional observations from a re-analysis of the deposited data

How the results depend on the processing

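No alternative reversed the direction of any of the 10 factors or of the other genes named by the rule; of the further list members, Id4 and Lhx1 changed sign without 1 library. Of 178 values of the factors under an alternative, 158 stayed on their side of the threshold, 19 lost a call (Egr3, Ier2 and, at an adjusted p under 0.01, Klf2) and 1 gained one (Nr4a3 with voom). The count of factors called higher was 4 to 5 without 1 library, 4 with no filter on low values and 3 at an adjusted p under 0.01; the count called lower was 1 with voom and 0 in the other settings. Egr3 and Nr4a3 did not pass the alternative filter of 0.5 FPKM and were not tested in that setting. The median of the factors ran from 0.35 to 0.49 without 1 library. Of all genes, 2738 changed, 1506 with no filter, 887 at an adjusted p under 0.01, 4060 with voom and 1263 to 2455 without 1 library (1636, 1263 and 1331 without wild-type replicates 1, 2 and 3). A stricter threshold passes fewer genes by construction; for the other settings the cause was not tested.

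Same-numbered samples did not deviate together (r of 0.02, 0.00 and -0.01 for numbers 1, 2 and 3), and not every sample correlated best with its own number, so the numbers were not taken as pairs. With the replicate block 2202 genes changed and 5 factors were called higher, and with the block and the GC and length correction 2268 and 5. Depth limits Egr3, Nr4a2 and Nr4a3, which had 5 to 55 fragments per library.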

Other observations

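Low KLF genes fell below the limit of 10 fragments in 3 libraries and were not tested. Klf17 had 1, 4 and 4 fragments in wild type and 9, 8 and 7 in Ppp6r3 cKO, and Klf14 had 5, 4 and 5 against 3, 6 and 11. The mesodermal factor T, of the GDNF-responsive list, had 9, 9 and 6 fragments against 16, 9 and 13.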
